A study of Mus musculus with 3 samples.

Results

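In a culture of untreated mouse embryonic stem cells, 65 of 2256 deeply sequenced cell barcodes carried almost no mitochondrially encoded RNA. Short messages, such as those of ribosomal and respiratory chain proteins, made up more of their RNA than in the other barcodes. So did messages of tubulins, actins and their partners, while long and nuclear transcripts made up less. The 65 barcodes were chosen by 2 measured values, a total of at least 14158 unique molecular identifiers (UMIs, the tags that mark single captured RNA molecules) and less than 1% of UMIs from the 13 genes of the mitochondrial genome. They made up 2.88% of the 2256 untreated barcodes with that many UMIs (95% exact binomial interval 2.23 to 3.66%, counting error only). The comparison group was the other 2191 barcodes, which had 1 to 20% mitochondrial UMIs, and 0 barcodes exceeded 20%. The 3 libraries of the study together held 6575 barcodes with that many UMIs.

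The cells were E14 mouse embryonic stem cells, grown in serum with leukemia inhibitory factor and measured with 10x Genomics 3′ chemistry, which captures RNA by its poly(A) tail and counts its 3′ end. The untreated cells received the ethanol vehicle (0.007%) for 6 h, starting 24 h after seeding. The 2 other libraries of the study received 250 µg/mL of the translation elongation inhibitor cycloheximide in the same vehicle for 3 h or 6 h. All cells were detached, frozen and thawed before barcoding. Each condition was 1 library, and barcodes of 1 library are not replicates, so every difference below is a description with an interval for counting error only, and no test was made.

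A mouse cell holds many copies of a small mitochondrial genome, whose polyadenylated messages stay inside the mitochondria. Messages of nuclear genes are made and spliced in the nucleus, and most are then exported to the cytoplasm to be translated, free or at the endoplasmic reticulum. Some long noncoding RNAs, among them Malat1, Neat1 and Kcnq1ot1, are retained in the nucleus. Messages of the replication-dependent histones end in a stem-loop in place of a poly(A) tail, so a poly(A) assay sees only part of them.

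Most of the 65 barcodes were deep, and they held little mitochondrial RNA. Their UMIs per barcode ran from 14309 over a median of 103710 to 218621, against 14220, 43148 and 158128 in the comparison barcodes. In 9 of the 65 the total exceeded every comparison barcode, 34 lay above the 95th percentile of the comparison barcodes, and 9 lay below their 5th percentile. The groups held 6400997 and 111505083 UMIs. Mitochondrial UMIs per barcode had a median of 178 (range 41 to 1207) in the low-mitochondrial barcodes and 1951 (range 215 to 8830) in the comparison barcodes. The pooled mitochondrial share was 0.215% against 4.57%. In RNA free of cells, taken as the 67302 barcodes with 10 to 100 UMIs, the share was 3.03%. Among the 65, barcodes with more UMIs had a lower mitochondrial share (Spearman coefficient -0.74, Pearson r -0.68 across barcodes of 1 library, where the total is also the denominator of the share). No doublet caller was run, and the part of doublets in the high totals was not tested.

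**Figure D1:**
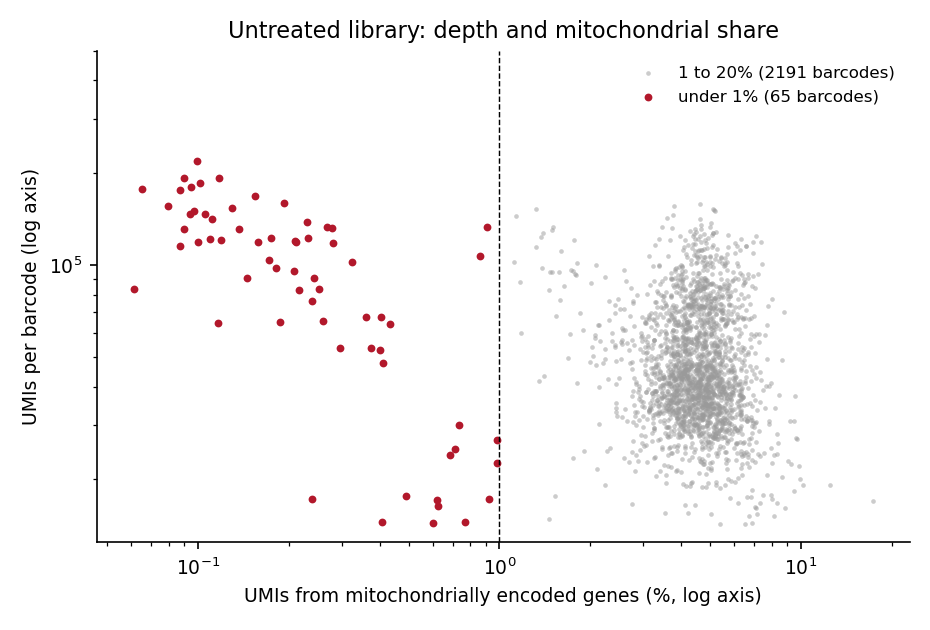
Each point is 1 untreated barcode with at least 14158 UMIs, by its mitochondrial share of UMIs (x, %, log axis) and its total UMIs (y, log axis). The 65 barcodes under 1% (red, left of the dashed line) reach 218621 UMIs, above the highest comparison barcode (grey) at 158128.

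The values used for the choice were low for each of the 13 mitochondrial genes, with no exception. The log2 ratio of CPM (a gene's UMIs scaled to the same total in each group) ran from -3.78 for mt-Cytb, which encodes cytochrome b, to -6.004 for mt-Nd6, a subunit of complex I and 1 of the sparser messages (0.625 against 45.1 CPM). The most abundant, mt-Atp6 of the ATP synthase, was at 402 against 9727 CPM. The complex IV messages mt-Co1, mt-Co2 and mt-Co3 had log2 ratios of -4.38, -4.26 and -4.28.

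Outside the mitochondrial genome, the low-mitochondrial barcodes were poor in a nuclear RNA and rich in 2 cytoplasmic messages. Malat1, a nuclear long noncoding RNA, was at 271 CPM (95% Poisson interval 258 to 284) against 2581 CPM (2572 to 2591), a log2 ratio of -3.25 (95% interval -3.32 to -3.18). Gapdh, a glycolytic enzyme, was at 8560 CPM (8489 to 8632) against 3232 CPM (3221 to 3242), a log2 ratio of 1.41 (1.39 to 1.42). Dppa5a, an RNA-binding protein of pluripotent cells, was at 7557 CPM (7490 to 7625) against 4770 CPM (4758 to 4783), a log2 ratio of 0.66 (0.65 to 0.68). On mouse build GRCm38 (GENCODE M21), Malat1 lies on chromosome 19 at 5795690 to 5802672, Gapdh on chromosome 6 at 125161715 to 125166467 and Dppa5a on chromosome 9 at 78367052 to 78368177, each on the minus strand. In free RNA, the levels of Malat1, Gapdh and Dppa5a were 1745, 2633 and 3533 CPM.

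By single barcode, Gapdh set the 65 apart more than Malat1 or Dppa5a did. Gapdh ran from 1939 over a median of 8348 to 10260 CPM in the low-mitochondrial barcodes, and from 494 over 3090 to 7513 CPM in the comparison barcodes. In 59 of the 65 it lay above the 95th percentile of the comparison barcodes, and in 44 it exceeded every comparison barcode, so the groups overlapped only in part. Malat1 ran from 0 over 124 to 3667 CPM in the 65 and from 0 over 2196 to 25372 CPM in the comparison barcodes. 52 of the 65 lay below the 5th percentile of the comparison barcodes, and 1 of the 65 had no Malat1 UMI. With 0 as the lowest comparison value, none of the 65 could lie below every comparison barcode. Dppa5a ran from 2790 over 7578 to 8504 CPM against 0, 4591 and 15779 CPM, so that it was high in the 65 but inside the range of the comparison barcodes. For Dppa5a 46 of the 65 lay above the 95th percentile of the comparison barcodes.

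**Figure D2:**
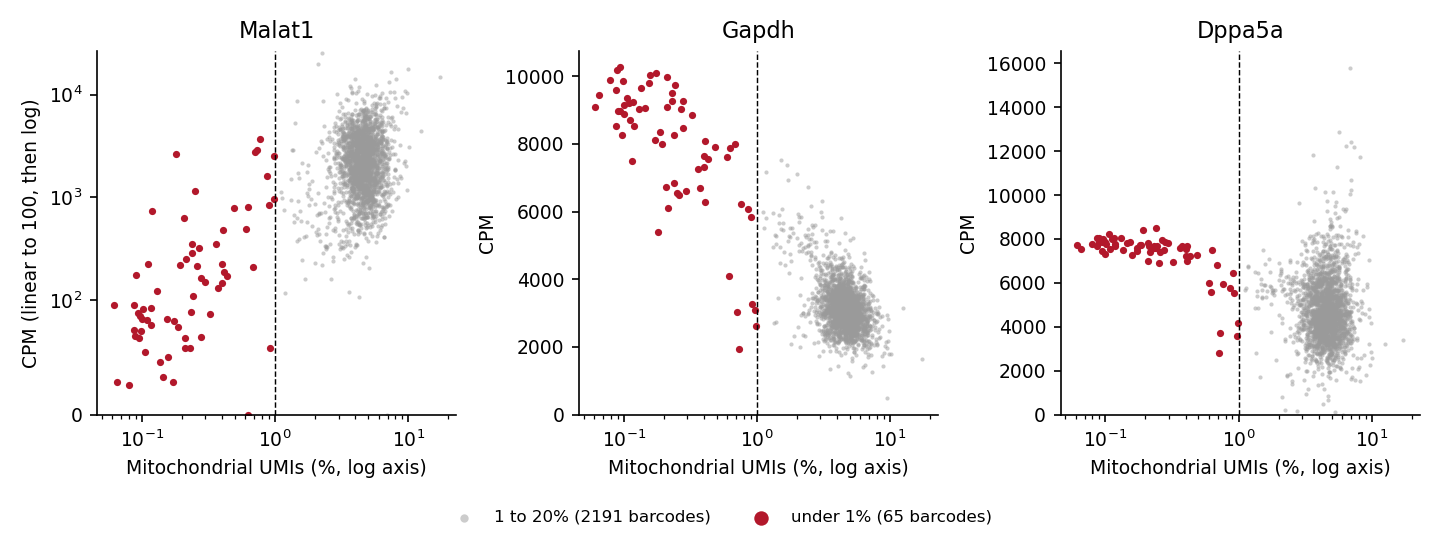
CPM of Malat1 (linear to 100, then log), Gapdh and Dppa5a (both linear) in each untreated barcode against its mitochondrial share (%, log axis), with the 65 barcodes under 1% in red and the 2191 comparison barcodes in grey. The red points reach 10260 CPM for Gapdh, and their Dppa5a levels lie close together, with quartiles of 7236 and 7799 CPM.

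Among the 6526 genes that averaged 10 CPM or more across the groups, 97 (1.49%) were at least 2-fold higher in the low-mitochondrial barcodes and 2468 (37.8%) at least 2-fold lower. Since the choice used these same barcodes, the percentages are the background for the counts below and support nothing. The floor lets a gene pass through the group where it is high: 1265 genes reached 10 CPM only in the comparison barcodes and 66 only in the low-mitochondrial ones. Of the genes past 2-fold, 87 of the higher and 1379 of the lower reached 10 CPM in both groups. The median log2 ratio was -0.49, and 34.8% of genes lay above 0. No gene was 4-fold higher, while 686 were at least 4-fold lower and 19 outside the mitochondrial genome at least 8-fold lower. Scaling and the floor moved this split. TMM factors raised the median by 0.51 and gave 898 higher and 1524 lower genes, and mean UMIs per barcode, without scaling to the total, raised each ratio by 0.95 and gave 2185 higher and 651 lower genes. With the main scaling, a floor of 50 CPM left 2410 genes, with a median of 0.075 and 53.6% above 0. Among 5 groups of equal size by mean level, the median was -1.09 in the lowest and 0.21 in the highest. Since 0 depends on the scaling, the main lists below are also counted against the median of all genes.

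The highest genes were a mixed set of functions. Naa38, an auxiliary subunit of an N-terminal acetyltransferase, was at 260 against 99.7 CPM (log2 ratio 1.38, 1.31 to 1.46), and 50 of the 65 barcodes lay above the 95th percentile of the comparison barcodes. Ndufa3, a small subunit of respiratory complex I, was at 290 against 110 CPM (log2 ratio 1.39, 1.32 to 1.46), with 49 of the 65 above that percentile. Isyna1, which makes inositol phosphate from glucose 6-phosphate, was at 232 against 89.8 CPM (1.37, 1.29 to 1.45), and the alpha-tubulin Tuba1c at 257 against 103 CPM (1.32, 1.24 to 1.39). Isyna1 and Tuba1c each had 40 or more barcodes above the percentile (40 and 41). The dynein light chain Dynlrb1 followed at 200.4 against 81.0 CPM (1.31).

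Other genes among the 15 highest were sparser and held more counting error. The telomere protein Acd was at 57.6 against 21.7 CPM (log2 ratio 1.41, 1.25 to 1.57), and the proteasome inhibitor Psmf1 at 46.7 against 18.9 CPM (1.31, 1.13 to 1.48). The kinase Cdk5 (1.29, 1.08 to 1.48), the chromatin reader Sgf29 (1.28, 1.12 to 1.44), the aminoacylase Acy1 (1.33, 1.10 to 1.54) and Eri3 (1.37, 1.23 to 1.52) were of like size. Tmem179b, Renbp and Plvap, at 1.40, 1.29 and 1.30, completed the 15. For each of these 15 genes, including Gapdh, no single barcode gave more than 8.43% of the UMIs.

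The lowest genes were long. Kcnq1ot1, a nuclear noncoding RNA that silences an imprinted cluster, was at 13.7 against 226 CPM (log2 ratio -4.03, -4.36 to -3.74), and 1 barcode gave 17.05% of its UMIs in the 65. Its gene spans chromosome 7 from 143203458 to 143296549. Ankrd11, a chromatin regulator, was at 43.6 against 378 CPM (-3.12, -3.29 to -2.95), and 56 of the 65 barcodes lay below the 5th percentile of the comparison barcodes. Auts2 (-3.79), the histone demethylase Kdm3b (-3.33), the histone methyltransferase Ash1l (-3.19), the transcription factor Nfib (-3.31), the Mediator subunit Med13l (-3.03) and the DNA polymerase subunit Rev3l (-3.08) also act in the nucleus. The group also held messages of proteins with other sites. The golgins Trip11 (-3.42) and Golga4 (-3.08) and the Golgi protein Glg1 (-3.16) were as low, as were the kinesin Kif13b (-3.10), Ccdc88a (-3.24) and the scaffold Strn3 (-3.24). Of the 15 lowest, only Kcnq1ot1, Malat1 and Ankrd11 reached 10 CPM in the 65. The others passed the floor only through the comparison barcodes and were sparse in the 65. They ran from 9 UMIs for Auts2 (1.41 CPM, interval -4.99 to -2.94) to 52 for Med13l (8.12 CPM, -3.46 to -2.65). The 15 named here, which the floor helped to choose, were not messages of nuclear proteins alone.

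Transcript length, which the choice did not use, ordered the ratios of 6513 nuclear genes with an annotated transcript. When genes were split into 5 groups of equal size by the longest annotated transcript, the median log2 ratio was 0.41 in the shortest (183 to 1743 nucleotides), -0.06, -0.65 and -1.24 in the next, and -1.80 in the longest (4965 nucleotides and more). In the shortest group 2.38% of genes were at least 2-fold lower, and in the longest 81.0%. Across genes, which are not independent replicates, the Spearman coefficient between length and log2 ratio was -0.70. The shortest group took 52.8% of UMIs in the low-mitochondrial barcodes and 39.7% in the comparison barcodes, and the longest 4.46% against 9.61%. By barcode, the share of the longest group had a median of 4.31% (range 3.17 to 13.8%) against 9.50% (3.20 to 18.9%), and 59 of the 65 lay below the 5th percentile of the comparison barcodes.

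**Figure D3:**
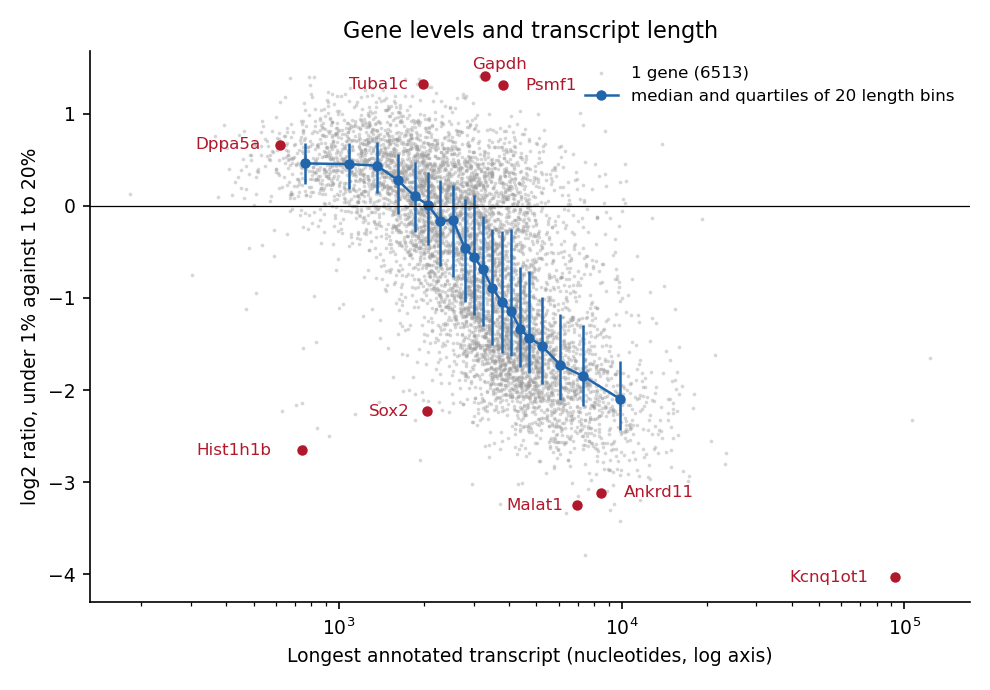
Each grey point is 1 of 6513 nuclear genes, by the length of its longest annotated transcript (nucleotides, log axis) and its log2 ratio of CPM between the 65 barcodes under 1% and the 2191 comparison barcodes. Blue points and lines are medians and quartiles of 20 length bins, which run from 0.46 to -2.09, and genes named in the text are in red.

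Other features moved with length and with the ratio. The Spearman coefficient was -0.66 for coding length, -0.60 for the genomic span of the gene, -0.48 for exon number, 0.32 for GC content and 0.34 for mean level. Within each of the 5 length groups the Spearman coefficient between span and ratio was still negative, from -0.15 in the shortest to -0.42 in the longest. The Spearman coefficient with GC content was 0.37 in the shortest group and 0.05 to 0.18 in the other 4. With the principal transcript of the annotation as the length, the Spearman coefficient was -0.73, and with the median over all transcripts of a gene, which includes short partial models, -0.40. The separate parts of these features were not tested.

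Length did not place every gene. The difference of a gene from the median of its length bin (20 bins) is given below as its value against like length. Hist1h1b (-3.11), Hist1h1e (-2.86) and Hist1h3e (-2.88), short histone messages, were among the 5 lowest on this scale. With them were Gm21411 (-3.07) and AY036118 (-2.95), a noncoding transcript at a ribosomal RNA repeat, which stood at 18.9 and 107 CPM in the groups and 8182 CPM in free RNA. The 5 highest were Tbc1d17 (2.91), Ccdc167 (2.85), BC004004 (2.77), the mitochondrial ribosomal protein gene Mrpl17 (2.73) and Unc13a (2.54). Their longest annotated models run from 7117 nucleotides for Ccdc167 to 13859 for BC004004. By the median transcript length these 5 values were 0.70, 1.38, 0.82, 0.85 and 0.51. By the principal transcript they were 2.90, 0.65, 2.75, 2.69 and 2.53, so the choice of transcript changed their place. Gapdh was 2.09 above like length by its longest model of 3289 nucleotides, and 1.05 above by its principal model of 1420 nucleotides. Dppa5a, at 619 nucleotides, was 0.20 above and Malat1, at 6983, was 1.40 below. The list values against like length below use the longest transcript and also move with this choice.

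Messages of the cytosolic ribosome, the particle that translates nuclear messages, took 36.0% of UMIs in the low-mitochondrial barcodes and 27.2% in the comparison barcodes. Of 85 ribosomal protein genes 83 passed the floor of 10 CPM. Of these, 77 were above 0 and 81 above the median of all genes, 0 were past 2-fold either way, and the median log2 ratio was 0.38. Rpl10a was at 4290 against 2201 CPM (log2 ratio 0.96) and Rpl35 at 3738 against 1985 CPM (0.91), while Rpl23a, at 871 against 1268 CPM (-0.54), and Rpl12 (-0.50) were lower. Against like length the median was 0.02 by the longest transcript, -0.05 by the principal and 0.41 by the median transcript. Per barcode 58 of the 65 exceeded the 95th percentile of the comparison barcodes for the summed share.

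Nuclear genes of the mitochondrion were not low with the mitochondrial genome. The respiratory chain, whose complexes are built from both genomes, had 80 nuclear genes above the floor, of which 76 were above 0, 78 above the median of all genes and 7 at least 2-fold higher, with a median log2 ratio of 0.58 and 0.24 against like length. Atp5d of the ATP synthase was at 724 against 329 CPM (1.14), next to Ndufa3 above. The lowest, Ndufs1 of complex I and Sdha of complex II, were at -0.92 and -0.82. Summed, these genes took 4.93% of UMIs against 3.32%, and 22 of the 65 barcodes exceeded every comparison barcode. Mitochondrial ribosomal proteins, which translate the mitochondrial messages, had 78 genes with a median of 0.46 (0.41 against like length), with 71 above 0 and 76 above the median of all genes. Mrpl37 was at 93.1 against 41.6 CPM (1.16) and Mrps2 at 19.4 against 30.9 CPM (-0.67). In 28 of the 65 barcodes their summed share exceeded every comparison barcode.

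Import and expression of the mitochondrial genome divided further. For the import machinery the median over 26 genes was 0.26, with the translocase subunits Timm17b at 1.08 and Timm50 at 0.88, and the import receptor Tomm70a at -1.70 and the chaperone Hspa9 at -1.13. Factors of mitochondrial transcription, replication and RNA handling had a median of -0.48 over 23 genes, near the median of all genes, and 0.21 against like length. The RNA-binding protein Lrpprc (-1.93) and the transcription factor Tfb2m (-1.73) were the lowest, and Tefm (0.52) and Mterf4 (0.41) the highest. Tfam, which packages mitochondrial DNA, was at 65.8 against 102 CPM (-0.64), 0.51 above like length.

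Glycolysis, which breaks glucose to pyruvate in the cytosol, had a median of 0.39 over 17 genes, 0.33 against like length, with 15 of the 17 above like length. After Gapdh the highest was Aldoa at 1329 against 698 CPM (0.93), and the lowest were the glucose transporter Slc2a3 (-1.72) and the hexokinase Hk2 (-1.67), both long messages at 0.01 and -0.15 against like length. The pathway took 1.55% of UMIs against 0.830%, a sum that Gapdh dominates, and 34 of the 65 barcodes exceeded every comparison barcode. Tubulins, actins and their partners had a median of 0.48 over 31 genes and 0.44 against like length. Tuba1b was at 2070 against 1004 CPM (1.04), whereas the actin crosslinkers Actn1 and Actn4 were at -2.01 and -1.82. The proteasome, which degrades tagged proteins, had a median of 0.24 over 45 genes and 0.05 against like length, from Psmb3 (1.06) to its activator Psme4 (-2.27).

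**Figure D4:**
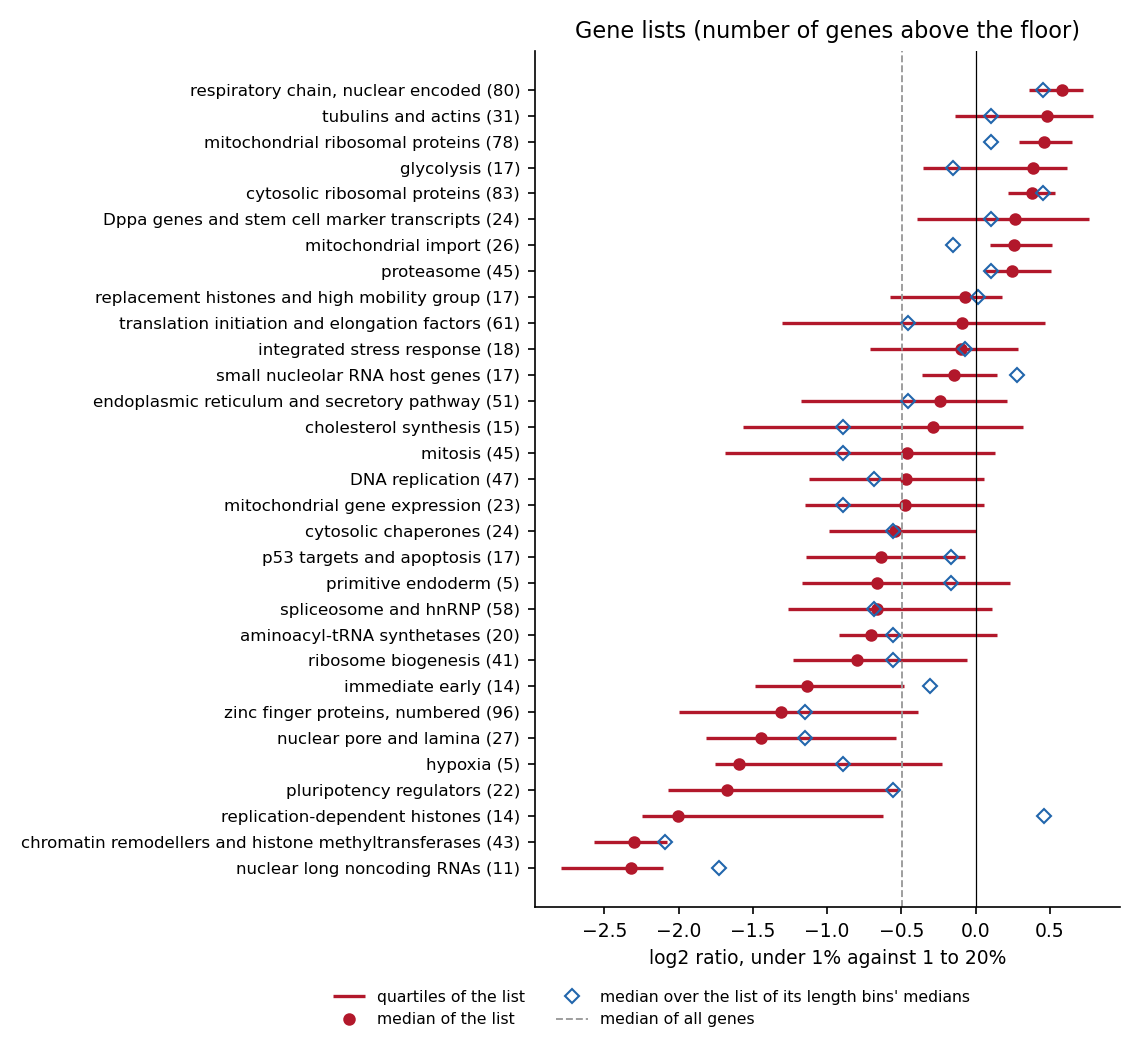
Median (red point) and quartiles (red line) of the log2 ratio in each gene list with at least 5 genes above 10 CPM, beside the median of genes of like length (blue diamond) and of all genes (dashed line, -0.49). Replication-dependent histones lie farthest from their like-length value, at -2.003 against 0.46.

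Among lists of nuclear genes with at least 5 genes above the floor, nuclear noncoding RNAs had the lowest median, next to the chromatin list described below. Of 18 listed, 11 passed the floor. These were all below 0 and 10 were at least 2-fold lower, with a median of -2.32, which was -0.64 against like length. Their median transcript was 5864 nucleotides long. In the length bin of 5642 to 6575 nucleotides 79.1% of genes were at least 2-fold lower, so most of such a count goes with length. Besides Kcnq1ot1 and Malat1, Neat1, which builds nuclear paraspeckles, was at 7.03 against 41.8 CPM (-2.56). Neat1 passed the floor only through the comparison barcodes. Pvt1 was the exception at 15.6 against 16.97 CPM (-0.11, -0.42 to 0.17). Gm42418, which overlaps a ribosomal RNA repeat, was at 426 against 1546 CPM (-1.86). Per barcode the list took a median of 0.076% of UMIs against 0.516%, and in 38 of the 65 it was below every comparison barcode. Gm42418 was a large part of this sum, which pooled was 952 against 5415 CPM. In free RNA the list stood at 121704 CPM, so its summed share does not measure nuclear RNA alone. Host genes of small nucleolar RNAs, which are spliced and mostly noncoding, had a median of -0.15 over 17 genes, from Snhg4 (-1.31) and Snhg5 (-1.19) to Snhg3 (0.59).

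Replication-dependent histones, which package new DNA in S phase, had low ratios in most of the genes above the floor although the messages are short. Of 67 listed genes 14 passed the floor, with a median of -2.003, or -2.37 against like length, and 13 of the 14 lay below like length. The linker histones Hist1h1b, at 72.6 against 458 CPM (-2.65), and Hist1h1e, at 20.5 against 139 CPM (-2.76), were the lowest, and Hist1h2bc (-0.03) and Hist1h4i (-0.10) the highest. The most abundant, Hist1h2ap, was at 901 against 1241 CPM (-0.46). Summed over the list the share of UMIs was 0.131% against 0.275%, a log2 ratio of -1.07. By barcode the groups overlapped, and 1 of the 65 lay below the 5th percentile of the comparison barcodes. How reads shared between near-identical histone genes were counted is not given in the sources used here, so single histone values are uncertain. Replacement histones and high mobility group genes, whose messages carry poly(A) tails, had a median of -0.07 over 17 genes.

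Regulators of chromatin and transcription had low ratios, and most chromatin and zinc finger genes above the floor also lay below like length. Among chromatin remodellers and histone methyltransferases, enzymes that move nucleosomes or mark histones, each of the 43 genes above the floor, of 49 listed, was at least 2-fold lower, with a median of -2.30. Ash1l and Kmt2a (-2.87) were the lowest and Smarcad1 (-1.02) the highest. Their median transcript was 8509 nucleotides long. Among all genes in the longest of the 20 length bins (8193 nucleotides and more), 87.7% were at least 2-fold lower, so the count lies near the share for such lengths. The median of the list against like length was -0.36, with 35 of 43 below like length (median -1.30 by the median transcript). Of 398 numbered zinc finger protein genes, only 96 passed the floor. These had a median of -1.31 and -0.19 against like length, with 63 below it (median -0.40 by the median transcript). They ran from Zfp609 (-2.98) to the short Zfp580 (1.28). Summed over all 398, the log2 ratio was -0.79. Ash1l, Kmt2a and Zfp609 passed the floor only through the comparison barcodes. Nuclear pore and lamina genes had a median of -1.44 over 27 and -0.15 against like length, with Ranbp2 (-2.86) and Tpr (-2.12) lowest. Spliceosome genes spanned -2.30 for Hnrnpd to 1.23 for Sf3a2 around a median of -0.67, and ribosome biogenesis factors -2.28 for Utp20 to 0.93 for Nop10 around -0.80, with medians of 0.06 and 0.0066 against like length.

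The barcodes carried the marks of embryonic stem cells, at shifted proportions. Pou5f1, a core pluripotency factor, was at 721 against 533 CPM (0.44), equal to like length (0.00), while its partner Sox2 was at 45.3 against 213 CPM (-2.23, -2.40 to -2.06), 2.24 below like length. In 47 of the 65 barcodes Sox2 lay below the 5th percentile of the comparison barcodes. Nanog was at 78.0 against 123 CPM (-0.66), Zfp42 at 326 against 455 (-0.48), Esrrb at 20.2 against 64.1 (-1.66) and Klf4 at 31.4 against 134 (-2.09). Over 22 pluripotency regulators the median was -1.68, or -0.53 against like length, and 18 of the 22 lay below like length; Utf1, at 1048 against 545 CPM (0.94), was the highest. Other stem cell marker transcripts, the list with Dppa5a, had a median of 0.27 over 24 genes, from L1td1 (-1.90) and Pecam1 (-1.75) to Upp1 (0.86) and Ifitm3 (0.88).

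Few markers of other lineages passed the floor, though Apoe of the primitive endoderm list was abundant in both groups. None of the erythroid or trophoblast list passed the floor, of the fibroblast list only Fn1 did (24.5 against 86.4 CPM, -1.81) and of the 2-cell-like list only Eif1a (-0.88). The mesoderm list had Lefty1 (16.2 against 13.7 CPM) and the neural list Dnmt3b (-2.07) above the floor. Primitive endoderm had 5 genes, with Apoe at 754 against 588 CPM (0.36) and Lamb1 at -1.68. Of the leukocyte list Laptm5 (-1.23) and Cd68 (0.47) passed. Summed, the primitive endoderm list took 0.0904% of UMIs against 0.0828%, the 2-cell-like list 0.0124% against 0.0229% and the fibroblast list 0.00334% against 0.0102%. The leukocyte list took 0.00509% against 0.00785%, the neural list 0.00228% against 0.00890% and the mesoderm list 0.00259% against 0.00313%. The erythroid list took 0.000234% against 0.000118% and the trophoblast list 0.00102% against 0.00143%.

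Immediate early genes, induced within minutes of a stimulus, had a median of -1.14 over the 14 of 30 listed that passed the floor. Against like length it was -0.78, -0.33 and -0.53 by the longest, median and principal transcript. The genes ran from Fosb (-2.55), at 4.2 against 25.1 CPM, and Zfp36l1 (-2.35) to Ier2 (0.55). Summed over the list the log2 ratio was -0.59. Apoptosis and p53 target genes were at a median of -0.64 over 17 genes, and the integrated stress response at -0.10 over 18, where Chac1, an enzyme that degrades glutathione, was at 45.6 against 22.6 CPM (1.01). Hypoxia genes had a median of -1.59 over only 5 genes.

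Secretory and growth lists had medians between -0.71 and -0.09. Endoplasmic reticulum and secretory pathway genes had a median of -0.24 over 51 genes and -0.24 against like length, with 33 of 51 below it (median -0.08 by the median or the principal transcript). Among them the chaperone Canx (-1.78) and the glycosyltransferase subunit Stt3b (-1.77) were the lowest and Spcs1 of the signal peptidase (0.90) the highest. Translation factors spanned Eif4g3 (-2.59) to Eif3k (1.09) around -0.09, with 0.16 against like length, and aminoacyl-tRNA synthetases had a median of -0.71 over 20 genes. Cytosolic chaperones had -0.54 over 24, and -0.10, -0.33 and 0.11 against like length by the longest, median and principal transcript, with Hspa4 at -1.97 and the small heat shock protein Hspb1 at 0.94. Cholesterol synthesis had -0.29 over 15, with Fdps at 0.71. DNA replication (47 genes) and mitosis (45) both had a median of -0.47, with Mki67 at -2.26 and Pttg1 at 0.90, and medians of -0.04 and -0.01 against like length. The direction of several lists depends on the scaling and on the floor. With TMM factors and with mean UMIs per barcode the medians of the replication, mitosis, cholesterol, secretory, translation factor, stress response, small nucleolar RNA host, replacement histone and mitochondrial gene expression lists were above 0. With mean UMIs per barcode those of the synthetase, chaperone, p53, spliceosome, ribosome biogenesis, hypoxia and primitive endoderm lists were too. The translation factor and small nucleolar RNA host medians were also above 0 against the 10 nearest barcodes in UMIs. A floor of 50 CPM, which leaves fewer genes, also put several medians above 0 without a change of scaling. These were the cholesterol, stress response, small nucleolar RNA host, replacement histone, mitochondrial gene expression and hypoxia lists.

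At equal depth the low-mitochondrial barcodes held fewer genes. Each barcode was thinned to 14158 UMIs, so that none was left out. The number of genes with a UMI was then 2468 to 4234 with a median of 2829 in the 65, and 2043 to 4513 with a median of 3631 in the comparison barcodes, and 58 of the 65 lay below the 5th percentile of the comparison barcodes. Without thinning the medians were 6870 and 6038, the opposite order, in barcodes of unequal depth. The 50 highest genes of a barcode took a median of 30.3% of its UMIs against 25.1%.

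For most of the well-covered genes, the barcodes under 0.5% mitochondrial UMIs differed little from each other, while some genes, Malat1 most clearly, varied more. The spread of a gene between barcodes was measured at 14158 UMIs as the squared coefficient of variation beyond counting error, which is 0 when barcodes differ by sampling alone. It was read for the 307 nuclear genes with a mean of at least 5 UMIs in the 65 barcodes, in the 53 of them under 0.5%, in the comparison barcodes and in the 65 comparison barcodes nearest in UMIs. This filter leaves out Malat1 and other genes that are sparse in the low-mitochondrial barcodes. The median over the 307 genes was 0.021 in the 65 barcodes, 0.0062 in the 53 and 0.040 in the 12 of 0.5 to 1%. It was 0.027 in all comparison barcodes, 0.040 in the nearest 65, 0.017 in the 37 of 1 to 2% and 0.020 in the 834 of 4 to 5%, so the full 65 were not below every set of comparison barcodes.

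Of the 307 genes, the 20 with the highest values in the comparison barcodes had a median of 0.186 there and 0.128 in the nearest 65. Their median was 0.037 in the low-mitochondrial 65, 0.0025 in the 53 and 0.161 in the 12 of 0.5 to 1%, against 0.071 in the comparison barcodes of 1 to 2%. Because the 20 were picked for a high spread in the comparison barcodes, a lower value elsewhere is partly given by that choice, and the measures and subsets were chosen after the data were seen. Hist1h2ap, a histone message of S phase, had 0.0056 in the 53 barcodes, 0.076 in all 65, 0.495 in the nearest comparison barcodes and 0.530 in all comparison barcodes. Ube2c, of mitotic protein degradation, had -5.4e-05 in the 53 against 0.142 in the nearest and 0.381 in all comparison barcodes. The metallothionein Mt1 had 0.0107 against 0.239 and 0.426, the adenine nucleotide carrier Slc25a4 -0.0061 against 0.226 and 0.489, and Apoe -0.0036 against 0.488 and 0.338. The highest value of the 20 in the 53 barcodes was 0.139, for Gm42418, against 1.48 and 0.280. Small negative values are sampling error around 0. Outside the 20, Dppa5a had -0.00055 against 0.103 and 0.091. Malat1, outside the 307, went the other way, with 4.59 in the 53 at a mean of 3.23 UMIs, against 0.832 and 0.561. In the 65 its quartiles were 74.1 and 355 CPM and its highest value 3667 CPM. A few outlying barcodes can carry such a squared coefficient, and their part in the 53 was not tested.

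**Figure D5:**
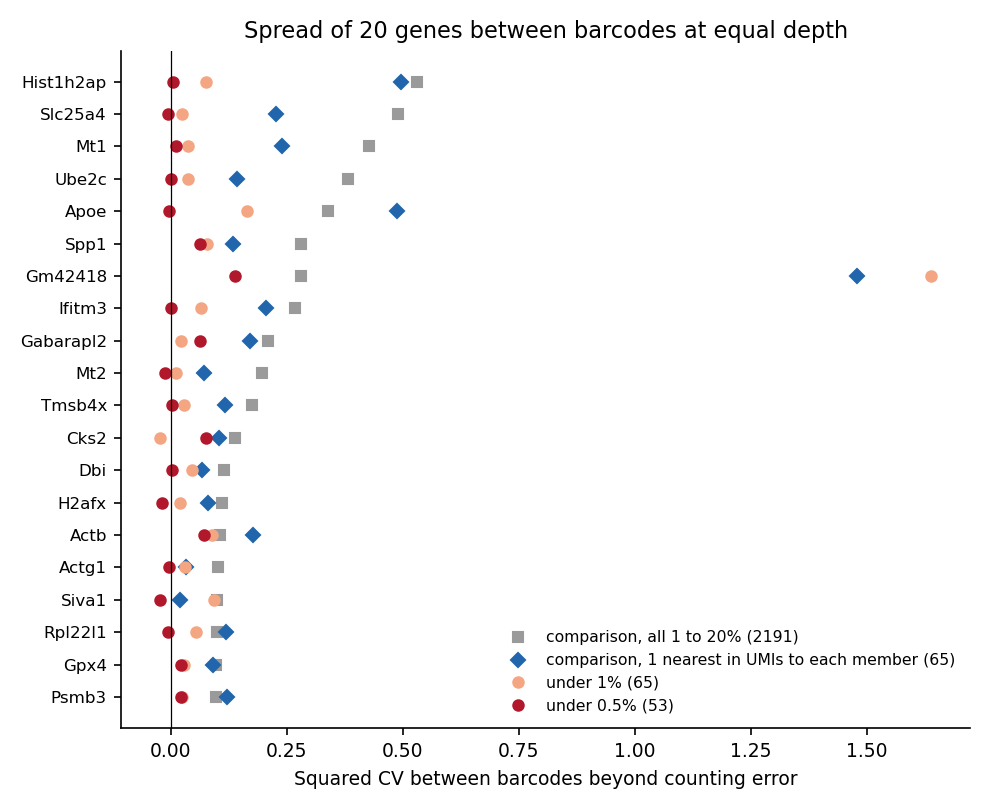
Squared coefficient of variation between barcodes beyond counting error (x) for the 20 genes with the highest values in the comparison barcodes (grey) among 307 genes with a mean of at least 5 UMIs, a filter that leaves out Malat1; each barcode was thinned to 14158 UMIs. Most values of the 53 barcodes under 0.5% (dark red) lie near 0, with a median of 0.0025, against 0.128 in the 65 comparison barcodes of nearest depth (blue); Gm42418 is high in the full 65 (orange, 1.64) and in the nearest comparison barcodes (1.48).

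The differences were smaller toward the limit of 1%. In the 38 barcodes under 0.25% Malat1 was at 172 CPM and Gapdh at 9016 CPM, and in the 15 of 0.25 to 0.5% at 273 and 7865 CPM. In the 12 of 0.5 to 1%, which were shallow (median 23205 UMIs), Malat1 was at 1347 and Gapdh at 5246 CPM. In the 37 comparison barcodes of 1 to 2% the values were 1199 and 5285 CPM at a median of 92425 UMIs, and in the 834 of 4 to 5% they were 2560 and 3173 CPM. Ankrd11 followed at 30.7, 51.3, 166, 210 and 389 CPM in these bins. The longest length group took 4.11, 4.61, 7.90, 7.36 and 9.71% of UMIs, and ribosomal proteins 36.8, 35.0, 29.8, 29.4 and 27.1%. The 5 barcodes just inside the limit (0.865 to 0.983%) had Gapdh levels of 2624 to 6074 CPM, and the 5 just outside it (1.11 to 1.32%) had 5504 to 7172 CPM, so the ranges overlapped. Among the comparison barcodes of 1 to 2%, 4 genes were at least 2-fold higher and 274 at least 2-fold lower than in all comparison barcodes.

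The rule found few barcodes after cycloheximide (differences between libraries were not tested). In the 3 h library 1 of 1745 barcodes lay under 1%, and in the 6 h library 8 of 2574. Set against the 2566 other barcodes of their own library, the 8 had a Malat1 log2 ratio of 0.28 (0.19 to 0.37), Gapdh -0.19 (-0.30 to -0.09) and Dppa5a -0.24 (-0.32 to -0.16), of opposite sign to the untreated library for each of these 3 genes. Across 6316 genes the ratios of the libraries had a Pearson r of -0.38, and the Spearman coefficient with transcript length was 0.34 at 6 h. The 2 lowest of the 8, with 0.049 and 0.101% mitochondrial UMIs, had Malat1 at 178 and 0 CPM, Dppa5a at 8672 and 8020 CPM and 5.62 and 4.94% of UMIs in the longest length group. Their Gapdh was at 3424 and 4567 CPM, against 3302 CPM in the 2566 comparison barcodes of that library. The other 6 of the 8 had Malat1 between 1975 and 6382 CPM and 9.58 to 14.9% in the longest length group. The single 3 h barcode had 0 Malat1 UMIs among 22158, which puts the upper bound of its log2 ratio at -4.03, with Gapdh at 2663 CPM against 3331 CPM in its library. Its Dppa5a was at 3881 against 5325 CPM, and its longest length group took 10.6% of UMIs. These 9 barcodes are too few for a comparison between conditions. The untreated library shared 3 cell barcodes with the 3 h library and 4 with the 6 h library, and 1 of the 65 barcodes was also called in the 6 h library.

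Shallower untreated barcodes under 1% also had less Malat1 and more Gapdh and Dppa5a than those of 1 to 20%. Among barcodes with 500 to 14158 UMIs, 317 had under 1% mitochondrial UMIs, with Malat1 at 493, Gapdh at 7293, Dppa5a at 6862 and Ankrd11 at 88.6 CPM. Their shortest and longest length groups took 50.3% and 5.30% of UMIs. The 507 of 1 to 20% had Malat1 at 2904, Gapdh at 4604, Dppa5a at 4887 and Ankrd11 at 290 CPM, and 39.5% and 9.25%. A further 566 barcodes of this depth had over 20% mitochondrial UMIs, a group with 0 barcodes in the deeper set, with Malat1 at 5015 and Gapdh at 557 CPM. Free RNA had 33.1% and 8.84% in these length groups.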

How the data were processed

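The authors deposited raw counts of UMIs for each gene in each barcode, made with Cell Ranger 4.0.0 on build mm10, per the submitters' processing notes; the annotation is not given in the sources used here. Of 32285 gene identifiers, 32235 matched GENCODE M21. Counts were summed over the barcodes of each group in Python 3.11.15 and divided by the group's total (CPM). Log2 ratios used a prior of 0.5 counts and genes averaging 10 CPM or more; 2-fold is a size, not a test. Intervals are exact (Poisson, conditional binomial) and cover counting error. No doublets were removed. Like length means the gene's bin among 20 bins of longest annotated transcript.

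The text names the 15 highest and 15 lowest ratios (interval excluding equality, at most 20% of UMIs in 1 barcode, no mitochondrial gene), the 5 highest and 5 lowest against like length, Malat1, Gapdh, Dppa5a, the mitochondrial genes, and, from the 2 highest and 2 lowest of each list, the genes given. Hist1h2ap, Neat1, Nanog, Zfp42, Esrrb, Klf4, Tfam and the genes named for their spread were added after their values were seen. The barcodes, the 39 lists and the alternatives were chosen with earlier results of these data known. Ratios, length bins and spread were tested on simulated data. The spread was simulated with more barcodes than any group here and read as a median over genes. Its sampling error in small sets and for single genes was not tested. TMM factors came from edgeR 4.0.16 in R 4.3.3.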

Additional observations from a re-analysis of the deposited data

How the results depend on the processing

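No paired analysis was possible because each condition is 1 library; for the same reason no replicate could be left out. Log2 ratios of Malat1, Gapdh and Dppa5a kept their direction under all 16 alternatives. TMM factors gave -2.74, 1.91 and 1.17, mean UMIs per barcode -2.30, 2.36 and 1.62, and mean of barcode CPM -2.56, 1.31 and 0.60. Limits of 0.5% and 2% gave -3.76, 1.44 and 0.69, and -2.19, 1.24 and 0.55. The 10 nearest barcodes in UMIs gave -2.97, 1.32 and 0.77, free RNA subtraction (10%) -4.64, 1.48 and 0.70, and members under 0.5% against unchanged comparison barcodes, chosen after the data were seen, -3.76, 1.45 and 0.69. Without mitochondrial genes in the total, Gapdh and Dppa5a were at 1.34 and 0.60, and also without Malat1 at 1.34 and 0.60. Malat1 was at -3.42 with 2 times the UMI minimum; without the 5 members of most UMIs, Malat1 and Gapdh were at -3.09 and 1.38; with 3 to 20% as comparison, Gapdh was at 1.45. Counts of 2-fold higher and lower genes were 898 and 1524 with TMM, 2185 and 651 per barcode, 49 and 533 with a floor of 50 CPM, and 1044 and 5337 without a floor; a limit of 2% gave 38 higher genes. The Spearman coefficient with length was -0.61 with that floor, -0.60 without a floor and -0.40 by median transcript length. Genes per barcode were 6870 without thinning, and the spread 0.0062 in members under 0.5%. The hypoxia list changed sign, to 0.043 per barcode and 0.14 with the floor of 50 CPM, which leaves fewer genes. The respiratory chain, cytoskeletal, glycolysis, proteasome, import, both ribosomal and stem cell marker lists stayed above 0 and above the median of all genes in all 16, and the nuclear noncoding RNA, chromatin, replication-dependent histone, pluripotency, nuclear pore, zinc finger and immediate early lists below both. The causes of other shifts were not tested. Sparse genes are limited by depth: the 65 barcodes hold 6400997 UMIs.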
